A study of Mus musculus with 6 samples.

Results

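The genes of voltage-gated sodium, potassium and calcium channels were examined in the cortex of mouse embryos that lack a pair of splicing regulators. The set is a list of 38 genes given by name, with *Scn*, *Cacna*, *Cacnb*, *Kcn* and *Hcn* symbols, and they were found by symbol among the 59484 features of the deposited table, of which 23505 carry a symbol. Of the 38 genes, 37 stand in the table under the listed symbol and *Scn2a* stands under its older symbol *Scn2a1*. Cortical polyA+ RNA from embryonic day 18.5 (E18.5) was sequenced for 3 wild-type and 3 *Sam68*:*Slm2* double knockout (dKO) mice of the C57BL/6 strain. Sam68, encoded by *Khdrbs1*, and SLM2, encoded by *Khdrbs3*, are paralogous RNA-binding proteins that act on alternative splicing. The abundance of each channel gene was compared between the genotypes to ask whether the level of its whole transcript differs when both proteins are missing. The values are totals per gene, so single exons and their splicing were not analysed here. The labels give a cortex of its own to each library but no litter, sex or pooling, so *P*-values measure the spread between these libraries.

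Voltage-gated channels make neurons excitable. Sodium channels carry the rising phase of the action potential, potassium channels bring the membrane back towards rest and set the firing pattern, and calcium channels turn depolarization into calcium entry, which drives transmitter release and calcium-dependent gene expression. A pore-forming subunit sets the voltage range of each channel and auxiliary subunits set its traffic to the membrane and its gating, and cortical neurons assemble this repertoire gradually around birth. Some genes on the list encode relatives that voltage alone does not open: *Kcnn2* encodes a potassium channel opened by calcium, *Kcnt1* one opened by sodium, and *Kcnj3* and *Kcnj6* encode inward rectifiers opened by G proteins.

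The targeted genes were examined first, as a check of the labels. *Khdrbs1* had 8231, 8436 and 7974 normalized counts (reads divided by a size factor of the library) in wild-type libraries 1 to 3 and 114, 197 and 146 in dKO libraries 1 to 3 (log2 fold change -5.78, standard error 0.16, adjusted P = 1.08e-07 from limma). *Khdrbs3* had 13543, 15215 and 12764 in wild-type and 7059.5, 6349.7 and 6547 in dKO libraries (log2 fold change -1.05, standard error 0.09, adjusted P = 0.000855 from limma), so a large part of its signal remained when the whole gene was counted. The paralog *Khdrbs2*, which encodes SLM1 and was not targeted, had 1212, 1607 and 1300.1 in wild-type and 7585, 6499 and 7601 in dKO libraries (log2 fold change 2.40, standard error 0.11, adjusted P = 4.58e-06 from limma). All 3 separate the genotypes without overlap, and no library goes against its label. The tissue label fits the markers of cortical excitatory neurons, since *Neurod6* had between 45180.0 and 71754 normalized counts in the 6 libraries and *Tbr1* between 6239.9 and 9766. The choroid plexus marker *Ttr* had between 1.90 and 14.0.

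Reads on the listed features number 37301024, 32966884 and 39654253 in wild-type libraries and 40896541, 34808551 and 31837922 in dKO cortex. The 38 channel genes together took between 0.159% and 0.179% of the reads of a wild-type library and between 0.140% and 0.149% of those of a dKO library. Each of the 38 passed the filter of a mean of at least 10 normalized counts over the 6 libraries, with means from 34.3 to 12071, and the lowest single value of any of them rests on 14 reads. They are long transcripts, with a median of 7762 bases of annotated exon against 3380 over the 14478 tested features with a known length, and 36 of the 38 are longer than that median. They lie on 15 chromosomes, 9 of them on chromosome 2. There *Scn3a*, *Scn2a* and *Scn1a* belong to a cluster with *Scn9a* and *Scn7a*, which are outside the list, within 1.33 Mb from 65457118 to 66784918 (mm10).

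Levels of different genes were compared per kb of annotated exon. In wild-type cortex the median of the 38 was 99.2 normalized counts per kb, against 185 over all tested features with a length. *Scn3b*, a β subunit of sodium channels, had the highest level of the 38 at 2871 per kb, and *Cacnb3*, a cytoplasmic β subunit of calcium channels, was next at 1815. Auxiliary subunits thus held the top 3 places, with *Cacnb1* at 633, and the most abundant pore-forming subunit was *Cacna1h* at 513. The lowest levels were those of *Kcnb2*, a delayed rectifier of the Kv2 family, at 3.99, *Kcnj6* at 6.73 and *Scn1a* at 10.6. Summed over the 38, the level was 10481 ± 506 per kb in wild-type and 9603 ± 231 in dKO cortex (mean ± SD of 3 libraries), and the libraries of the genotypes did not overlap in this sum, which the few most abundant genes dominate.

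**Figure D1:**
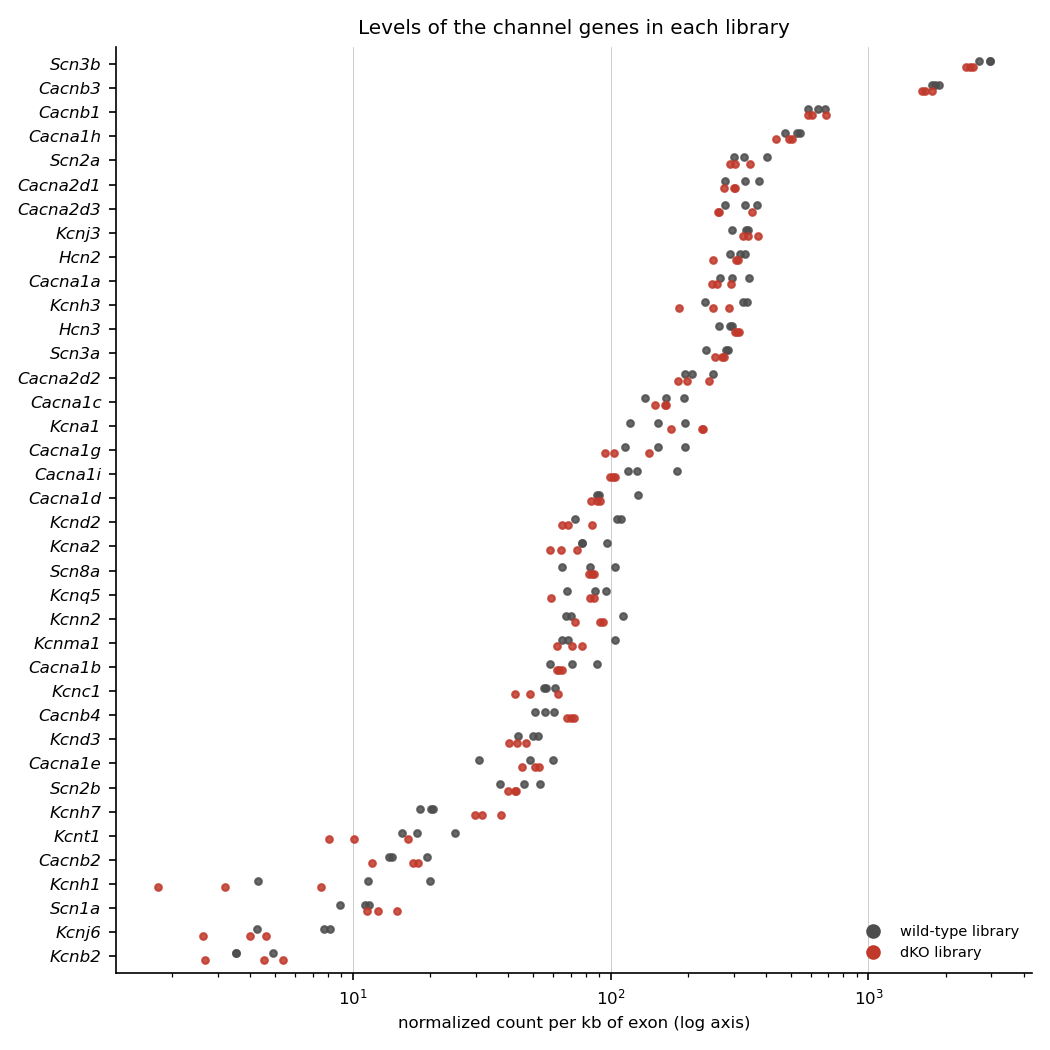
Level of each of the 38 channel genes in normalized counts per kb of exon on a log axis, ordered by the wild-type mean, with a point for each of the 3 wild-type (grey) and 3 dKO (red) libraries. *Scn3b* is highest at a wild-type mean of 2871 and *Kcnb2* lowest at 3.99, and for *Kcnh7* the dKO points lie to the right of the wild-type points.

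Between the genotypes, none of the 38 channel genes passed the test at an adjusted *P*-value under 0.05 from limma, where 19 of 18970 features, or 0.1%, did. DESeq2 on the recovered reads called 1 of the 38, *Kcnh7*, at the same threshold (1.07% of all features), and edgeR called none. At an unadjusted *P*-value under 0.05 from limma, 3 of the 38 lay higher in dKO cortex, or 7.89%, against 4.92% of all features, and 6 lay lower, or 15.8%, against 6.58%. The 3 are *Kcnh7*, *Kcna1* and *Cacnb4*, and the 6 are *Scn3b*, *Cacna1i*, *Kcna2*, *Kcnd2*, *Kcnh1* and *Kcnt1*. This count of 9 became 4 without wild-type library 1 and 4 without dKO library 3, or 10.5% of the 38, where 8.06% and 6.47% of all features had such a *P*-value. The 3 dKO values all lay above the 3 wild-type values in 3 genes (*Kcnh7*, *Cacnb4* and *Hcn3*), against 7.89% of all features, and all below them in 4 (*Scn3b*, *Cacna1i*, *Cacnb3* and *Kcna2*), against 8.48% of all features. After correction for transcript length the log2 fold changes were 0.76, 0.36 and 0.20 for the former and -0.15, -0.43, -0.05 and -0.34 for the latter, in the same order.

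The fold changes of the list were as small as those of all features and more often negative than positive. The log2 fold change was positive for 11 and negative for 27 of the 38, with a median of -0.13, where the median over all features was 0.00 with 9603 positive and 9367 negative. The median stayed between -0.15 and -0.07 when single libraries were left out, and was -0.13 with TMM rescaling and -0.15 with quantile normalization. It was -0.08 after correction for transcript length. For 34 of the 38 (89.5%, against 89.1% of all features) the estimate lay within 1.5-fold, and for 26 (68.4%, against 69.3%) within 1.2-fold. The sign of 12 of the 38 (31.6%, against 37.1% of the features fitted each time) changed when some single library was left out, while 20 stayed negative and 6 positive. Below, a range in brackets after a log2 fold change gives the lowest and highest value when single libraries were left out. The genes outside 1.5-fold are *Kcnh1*, *Kcnh7*, *Kcnt1* and *Kcnj6*, all potassium channels that rank among the 7 least abundant of the list per kb. In bulk RNA, fewer cells of a type and less RNA per cell cannot be told apart.

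**Figure D2:**
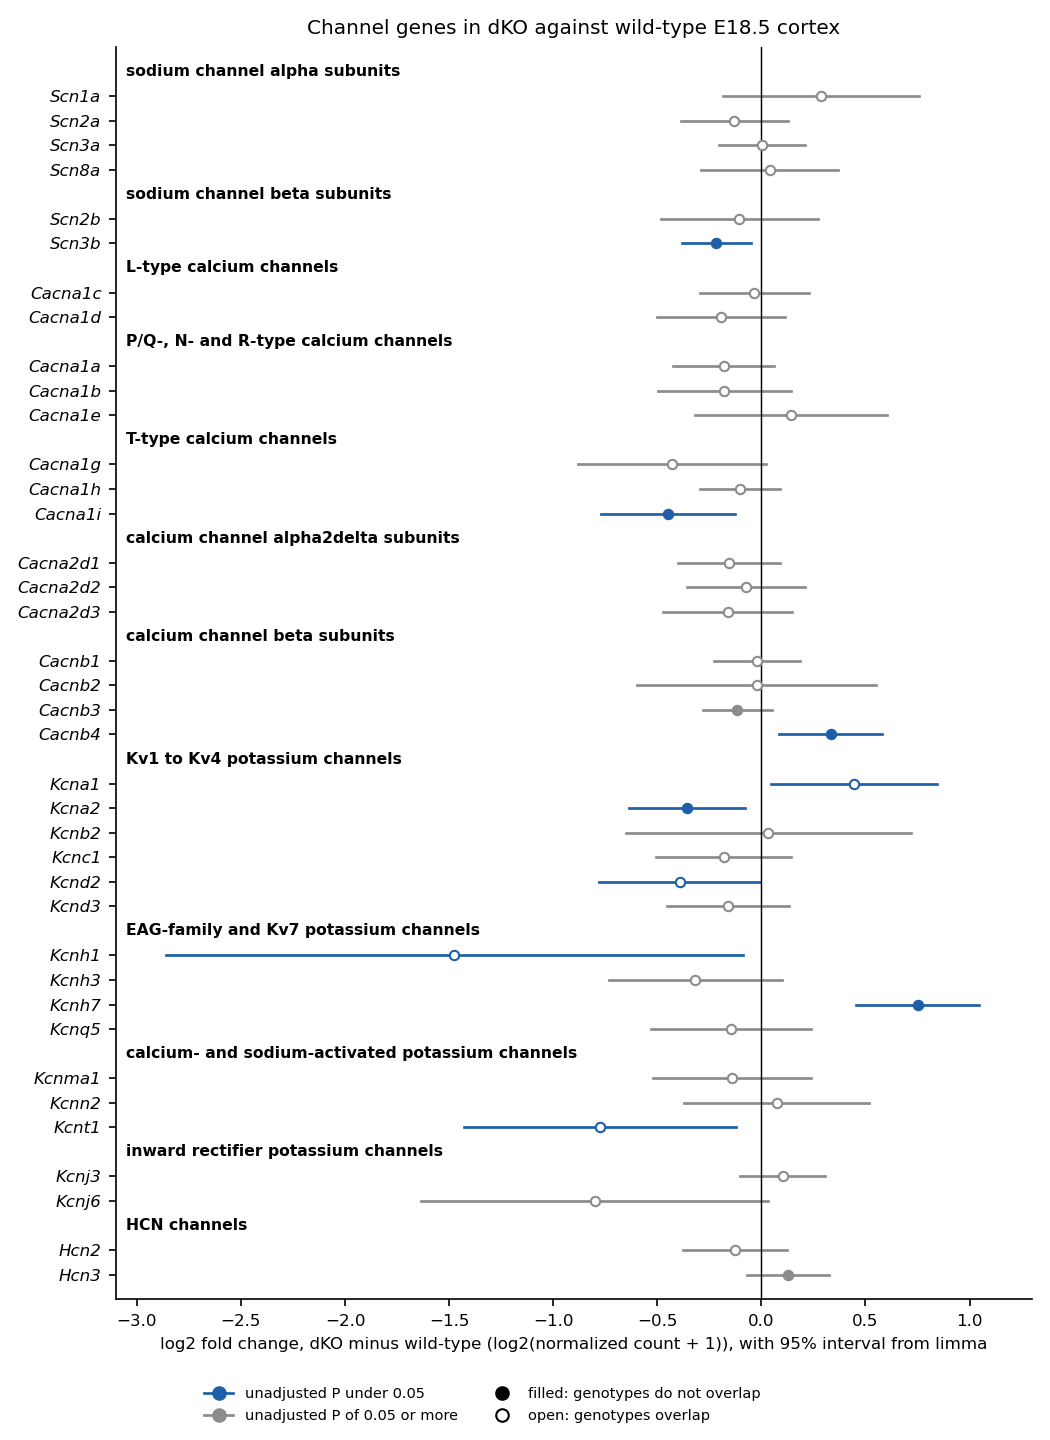
Log2 fold change (dKO minus wild-type, on log2(normalized count + 1)) of each of the 38 channel genes by role, with its 95% interval from limma over 3 libraries a genotype. Blue marks an unadjusted *P*-value under 0.05 and a filled point marks genotypes that do not overlap. *Kcnh7* lies farthest right at 0.75 and *Kcnh1* farthest left at -1.47 with the widest interval.

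Among the listed sodium channel α subunits, which form the pore, 0 of 4 had an unadjusted *P*-value under 0.05 from limma and in all 4 the genotypes overlapped. Over all features 11.5% had such a *P*-value and 16.4% did not overlap. The log2 fold changes were -0.13 (-0.22 to -0.01) for *Scn2a*, 0.00 (-0.09 to 0.05) for *Scn3a*, 0.04 (-0.14 to 0.21) for *Scn8a* and 0.29 (0.17 to 0.37) for *Scn1a*, so no direction can be given for *Scn3a* and *Scn8a*. Per kb, *Scn2a*, the main subunit of young axons, made up 48.8% ± 1.70 of the 4 in wild-type and 46.2% ± 2.07 in dKO cortex (mean ± SD of 3 libraries). *Scn3a*, the subunit typical of the embryonic brain, made up 37.9% ± 2.27 and 39.4% ± 1.03. *Scn8a*, which later carries most of the current at nodes of Ranvier, made up 11.8% ± 1.19 and 12.5% ± 0.940. *Scn1a*, the subunit of fast-spiking interneurons mutated in Dravet syndrome, made up 1.52% ± 0.332 and 1.91% ± 0.358. The order of the 4 was thus the same in both genotypes, and each share moved by less than 3 percentage points.

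*Scn1a* is also among the genes that the study lists as differently spliced in these mice, a list chosen on these libraries. It had 95.1, 76.3 and 99.1 normalized counts in wild-type and 97.1, 127 and 107 in dKO libraries. The lowest value is that of wild-type library 2 and the highest that of dKO library 2, and wild-type library 3 lies above dKO library 1. The difference did not pass the test (log2 fold change 0.29, standard error 0.21, adjusted P = 0.620 from limma), and leaving out single libraries gave 0.17 to 0.37.

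The β subunits are single-pass membrane proteins that modulate gating and anchor the channel. *Scn3b* had 13427, 12101 and 13409 normalized counts in wild-type libraries 1 to 3 and 11455, 11187 and 10843 in dKO libraries 1 to 3. Each dKO library lies below each wild-type library, and wild-type library 2 and dKO library 1 come closest. The log2 fold change of -0.22 (95% interval from -0.38 to -0.05) did not pass the adjusted test (adjusted P = 0.363 from limma). It was -0.15 after the correction for transcript length. *Scn2b* held 1.55% ± 0.196 of the β subunit level per kb in wild-type and 1.67% ± 0.1 in dKO cortex (mean ± SD of 3 libraries), and its log2 fold change was -0.11 (-0.24 to 0.01).

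The L-type calcium channels, which couple electrical activity to gene expression, gave log2 fold changes of -0.03 (-0.16 to 0.09) for *Cacna1c* and -0.19 (-0.29 to -0.02) for *Cacna1d*, with overlapping genotypes and no direction for *Cacna1c*. *Cacna1c* held the larger part of their level per kb, 61.7% ± 2.36 in wild-type and 64.3% ± 0.496 in dKO cortex (mean ± SD of 3 libraries). Of the channels of presynaptic terminals and dendrites, *Cacna1a* (P/Q-type) was the most abundant per kb at 303 in wild-type and 266 in dKO cortex, and *Cacna1e* (R-type) the least at 46.6 and 49.8. *Cacna1b* (N-type) lay between them, at 72.8 and 63.4.

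*Cacna1e* is on the study's list of differently spliced genes. It had 910.2, 747 and 473 normalized counts in wild-type and 807, 775 and 695 in dKO libraries. The wild-type libraries span the dKO ones, with library 1 highest and library 3 lowest of the 6. Its estimate (log2 fold change 0.14, standard error 0.21, adjusted P = 0.808 from limma) turned to -0.12 without wild-type library 3 and was 0.35 without wild-type library 1, so no direction can be given.

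The T-type channels open near rest and support burst firing. All 3 had negative log2 fold changes in limma, edgeR and DESeq2. *Cacna1i*, the slowest of them, had 1771, 1242 and 1143 normalized counts in wild-type and 1000.1, 970.4 and 1022 in dKO libraries. The dKO libraries lie close together and below each wild-type library, and wild-type library 1 stands well above the others. Its log2 fold change was -0.45 (95% interval from -0.77 to -0.12, adjusted P = 0.345 from limma) and -0.26 without wild-type library 1. A block for the replicate number with the length correction gave an adjusted *P*-value of 0.0354 from limma, and the block alone 0.298. The former fit called 2.61% of the features, and pairing by replicate number was not shown by the correlations given below. *Cacna1h* was the most abundant of the 3 per kb, at 513 in wild-type and 478 in dKO cortex, with a log2 fold change of -0.10 (-0.16 to -0.04). *Cacna1g*, singled out after its values were seen, had 1652, 969.9 and 1296 normalized counts in wild-type and 878, 1198 and 808 in dKO libraries. Here dKO library 2 reached into the wild-type range and wild-type library 2 into the dKO range (log2 fold change -0.43, standard error 0.20, adjusted P = 0.456 from limma). Leaving out single libraries moved the estimate for *Cacna1g* between -0.63 and -0.24.

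The α2δ subunits, which bring calcium channels to the membrane, had log2 fold changes of -0.16 (-0.27 to -0.05) for *Cacna2d1*, -0.07 (-0.19 to 0.03) for *Cacna2d2* and -0.16 (-0.30 to -0.07) for *Cacna2d3*. The genotypes overlapped for each of them, and the sign for *Cacna2d2* changed. After the length correction the log2 fold changes were -0.13, -0.03 and -0.09, in the same order. *Cacna2d1* and *Cacna2d3* had nearly the same wild-type level per kb, 328 and 326, and *Cacna2d2* had the lowest at 218.

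The calcium channel β subunits bind the pore subunit inside the cell and promote its surface expression. *Cacnb4*, the β subunit lost in the ataxic *lethargic* mouse, had 486, 527 and 442 normalized counts in wild-type and 613, 626 and 592 in dKO libraries. Each dKO library lies above each wild-type library, and the spread within a genotype is small. The log2 fold change of 0.33 (95% interval from 0.09 to 0.58) did not pass the adjusted test (adjusted P = 0.357 from limma) and stayed between 0.27 and 0.40 when single libraries were left out. *Cacnb3*, the most abundant β subunit, had 5209, 5565 and 5340.0 in wild-type and 4783, 4893 and 5202 in dKO libraries. Its dKO values lie below its wild-type values, but dKO library 3 and wild-type library 1 differ by under 10 counts (log2 fold change -0.12, standard error 0.07, adjusted P = 0.568 from limma), and the log2 fold change shrank to -0.05 after correction for transcript length. Per kb, *Cacnb3* made up 72.0% ± 1.999 of the 4 β subunits in wild-type and 70.2% ± 2.07 in dKO cortex, *Cacnb4* 2.21% ± 0.183 and 2.94% ± 0.158, and *Cacnb2*, the lowest, 0.629% ± 0.127 and 0.657% ± 0.142 (mean ± SD of 3 libraries).

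Of the 9 genes with an unadjusted *P*-value under 0.05 from limma, 3 are among the 6 listed potassium channels of the Kv1 to Kv4 families. Over all features 11.5% had such a *P*-value, and 4 of 26 Kv channels outside the list did. *Kcna1* encodes Kv1.1, a low-threshold channel of axons that is mutated in episodic ataxia. It had 672, 861 and 524 normalized counts in wild-type and 1013, 758 and 997 in dKO libraries. The dKO libraries 1 and 3 lie above each wild-type library, whereas dKO library 2 lies below wild-type library 2, so the genotypes overlap. The estimate was a log2 fold change of 0.44 (95% interval from 0.05 to 0.84, adjusted P = 0.396 from limma) and ran from 0.27 to 0.62 when single libraries were left out.

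*Kcna2* encodes Kv1.2, which joins Kv1.1 in the same axonal tetramers. It had 1152, 926 and 924 normalized counts in wild-type and 768, 883 and 692 in dKO libraries. Each dKO library lies below each wild-type library, with dKO library 2 closest to the wild-type range and wild-type library 1 highest. This gives a log2 fold change of -0.36 (95% interval from -0.63 to -0.08, adjusted P = 0.368 from limma). The estimates of these partner subunits thus have opposite signs, and neither passed the adjusted test. With a block for the replicate number and the length correction, *Kcna1* passed (adjusted P = 0.0176 from limma) and *Kcna2* did not (0.162). In that fit 2.61% of the features were called, and the correlations given below did not show that the replicate numbers pair the libraries. With the block alone the adjusted *P*-values from limma were 0.458 and 0.315. Per kb, *Kcna1* made up 34.7% ± 7.24 of the 6 Kv1 to Kv4 genes in wild-type and 46.7% ± 5.75 in dKO cortex, and *Kcna2* 18.8% ± 1.73 and 14.8% ± 2.33 (mean ± SD of 3 libraries).

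*Kcnd2* encodes Kv4.2, the channel of the dendritic A-type current. It had 566, 376 and 548 normalized counts in wild-type and 353, 436 and 334 in dKO libraries. Wild-type libraries 1 and 3 are the highest of the 6, and wild-type library 2 lies between dKO libraries 1 and 2. The difference did not pass the adjusted test (log2 fold change -0.39, standard error 0.18, adjusted P = 0.427 from limma), and the estimate lay between -0.58 and -0.29 as single libraries were left out. Its relative *Kcnd3* (Kv4.3) had a log2 fold change of -0.16 (-0.23 to -0.11), and *Kcnc1* (Kv3.1), a channel of fast-spiking cells, had -0.18 (-0.34 to -0.06). *Kcnb2* was the lowest of the 6 per kb, at 3.99 in wild-type and 4.20 in dKO cortex.

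*Kcnh7* (chromosome 2 from 62702938 to 63184289, mm10, identifier GSMG0022880 of the FAST database) had the smallest *P*-value of the 38. It encodes Kv11.3, a slowly deactivating channel of the ERG family, and it is on the study's list of differently spliced genes, which was chosen on these libraries. *Kcnh7* had 267, 294 and 299 normalized counts in wild-type libraries 1 to 3 and 466, 437 and 552 in dKO libraries 1 to 3. Each dKO library lies well above each wild-type library, and the wild-type libraries lie close together. Between the means this is a log2 fold change of 0.75 (95% interval from 0.45 to 1.05), or 1.68-fold. The adjusted *P*-value was 0.105 from limma and 0.108 from edgeR, which miss the threshold, and 0.000659 from DESeq2, which passes it. After correction for transcript length it was 0.0395 from limma, where 0.304% of the features with a length were called. Over all alternatives it ran from 0.000659 to 0.483, and the log2 fold change stayed between 0.65 and 0.82 when single libraries were left out.

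The other members of the EAG and Kv7 families had negative log2 fold changes, which for *Kcnq5* depended on the library left out. *Kcnh1* encodes Kv10.1, the ether-à-go-go channel mutated in Temple-Baraitser syndrome. It had 145, 31.1 and 83.3 normalized counts in wild-type and 12.7, 54.4 and 23.2 in dKO libraries. Wild-type library 1 is far above the rest, dKO library 1 is the lowest, and wild-type library 2 lies below dKO library 2, so the genotypes overlap. The log2 fold change of -1.47 has a 95% interval from -2.86 to -0.09 (adjusted P = 0.409 from limma), ran from -2.07 to -0.98 when single libraries were left out, and was -0.51 without both libraries numbered 1. A block for the replicate number with the length correction gave an adjusted *P*-value of 0.0262 from limma, and the block alone 0.519. The former fit called 2.61% of the features, and pairing by replicate number was not shown by the correlations given below. The span of *Kcnh1* overlaps *Hhat* on the other strand, as the spans of some other listed genes do with other genes, and whether reads were counted by strand is not given. *Kcnh3*, the most abundant of the 4 per kb, lay at 299 in wild-type and 240.3 in dKO cortex, and *Kcnq5*, a source of the M-current, had a log2 fold change of -0.14 (-0.29 to 0.03). Per kb, *Kcnh7* made up 4.81% ± 0.882 of these 4 genes in wild-type and 9.53% ± 2.31 in dKO cortex (mean ± SD of 3 libraries).

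Among the channels opened by calcium or sodium, *Kcnt1*, which encodes the Slack channel of epileptic encephalopathies, had 98.0, 112 and 157 normalized counts in wild-type and 63.5, 104 and 51.0 in dKO libraries. Wild-type library 3 is the highest, dKO libraries 1 and 3 are the lowest, and dKO library 2 lies between wild-type libraries 1 and 2. For *Kcnt1* the log2 fold change was -0.78 (95% interval from -1.43 to -0.12, adjusted P = 0.386 from limma). *Kcnn2*, the SK2 channel of the afterhyperpolarization and a member of the study's list of differently spliced genes, had 247, 411 and 259.5 in wild-type and 344, 335 and 268 in dKO libraries. Wild-type library 2 is the highest of the 6 and the other wild-type libraries are the lowest, so no direction can be given (log2 fold change 0.07, standard error 0.20, adjusted P = 0.908 from limma; -0.06 without wild-type library 1, -0.02 without wild-type library 3 and 0.31 without wild-type library 2). After the length correction the log2 fold change of *Kcnn2* was 0.15. *Kcnma1*, the BK channel, had a log2 fold change of -0.14 (-0.27 to 0.07), whose sign also turned when single libraries were left out. Per kb the order was *Kcnn2*, *Kcnma1* and *Kcnt1* in both genotypes, at 83.0, 79.1 and 19.4 in wild-type cortex, although *Kcnma1* exceeded *Kcnn2* in wild-type library 1.

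The inward rectifiers *Kcnj3* and *Kcnj6* encode the GIRK1 and GIRK2 subunits, which assemble with each other. *Kcnj3* was far more abundant per kb, at 324 in wild-type and 347 in dKO cortex, against 6.73 and 3.75 for *Kcnj6*. For *Kcnj3* the log2 fold change was 0.10 (0.04 to 0.15), or 0.16 after the length correction. *Kcnj6*, named for its size after its values were seen, had 53.3, 27.9 and 50.8 normalized counts in wild-type and 17.2, 26.1 and 30.2 in dKO libraries. Wild-type libraries 1 and 3 are the highest, and wild-type library 2 lies among the dKO libraries (log2 fold change -0.80, standard error 0.38, adjusted P = 0.450 from limma).

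HCN channels carry the hyperpolarization-activated current. *Hcn3* had 1179, 1168 and 1056 normalized counts in wild-type and 1259.6, 1240.2 and 1216 in dKO libraries. Each dKO library lies above each wild-type library, but by a narrow margin. Its log2 fold change was 0.13 (95% interval from -0.07 to 0.32, adjusted P = 0.587 from limma), with 0.08 to 0.16 as single libraries were left out. *Hcn2* had a log2 fold change of -0.13 (-0.19 to -0.02) with overlapping genotypes, or -0.05 after the length correction. Per kb *Hcn2* made up 52.5% ± 2.41 of the pair in wild-type and 48.2% ± 3.48 in dKO cortex (mean ± SD of 3 libraries).

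**Figure D3:**
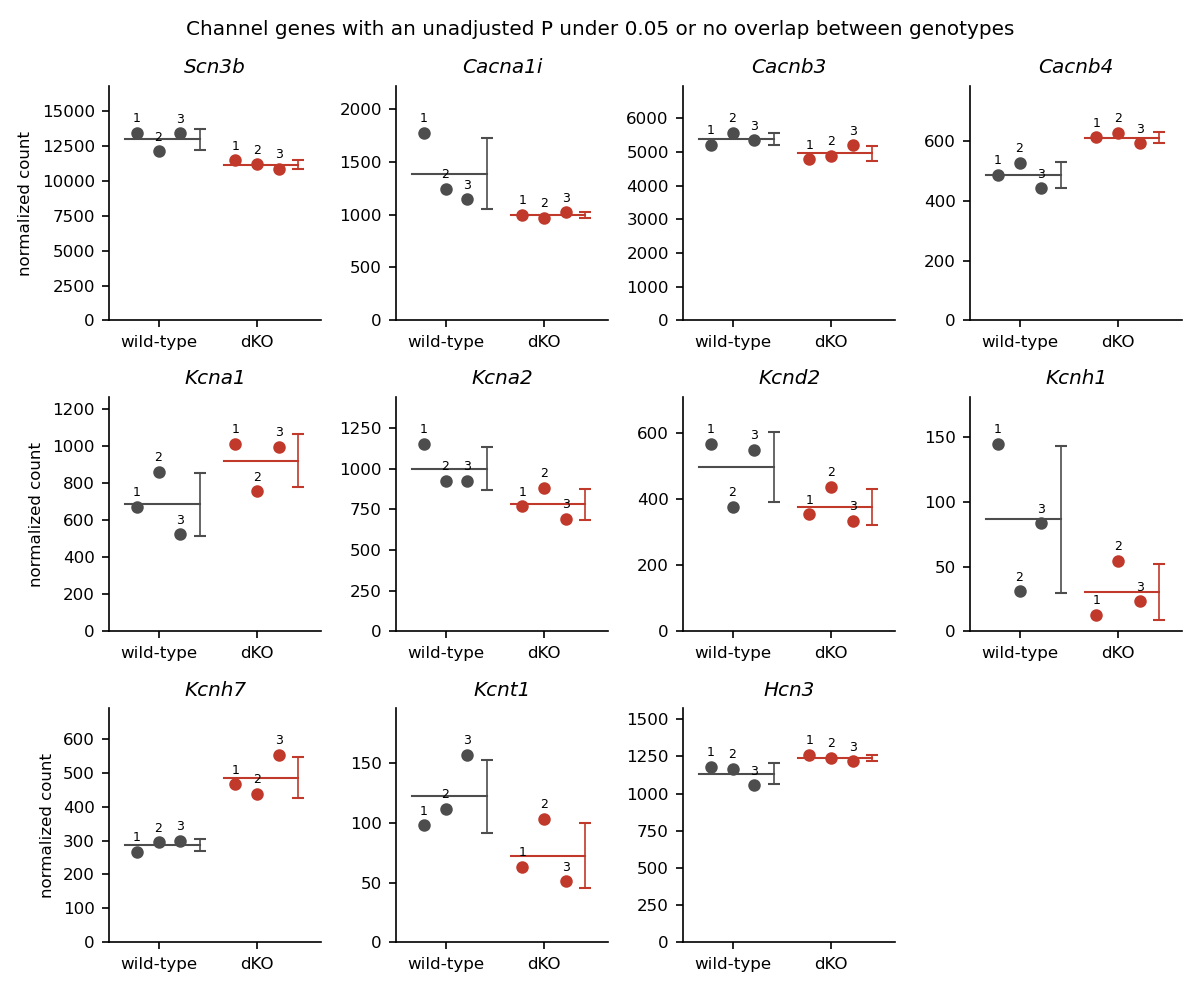
Normalized counts of the 11 channel genes with an unadjusted *P*-value under 0.05 or no overlap between the genotypes, with a numbered point for each library, a line at the mean and a bar for the SD (n = 3 each). *Kcnh7* shows the widest gap between the genotypes relative to its spread, while *Kcnh1*, *Kcnd2*, *Kcna1* and *Kcnt1* overlap.

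The other 27 genes of the list had log2 fold changes from -0.80 (*Kcnj6*) to 0.29 (*Scn1a*), with standard errors from 0.09 to 0.38. Their genotypes overlap by definition, since genes without overlap were taken out first.

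Further channel genes outside the list were taken from a list of other pore-forming, auxiliary and anchoring genes, of which 115 of 116 are in the table and 91 were tested. None of the 91 passed the adjusted test from limma or edgeR, and DESeq2 called 2, *Fgf12* and *Dpp10*. At an unadjusted *P*-value under 0.05 from limma, 0 lay higher and 16 lay lower in dKO cortex, or 17.6%, against 6.58% of all features. This count was 9 without dKO library 3 and 25 without wild-type library 2, where 6.47% and 14.3% of all features had such a *P*-value in either direction. The median log2 fold change of the 91 was -0.18, with 66 negative and 25 positive. The lower ones were spread over the roles, with 4 of 26 Kv channels, 3 of 15 potassium channel accessory subunits, 2 of 5 calcium- and sodium-activated and 2 of 11 inward rectifier potassium channels, and 1 each of 7 sodium channel, 7 calcium channel, 10 two-pore potassium channel, 3 HCN and 7 anchoring or modulator genes.

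The smallest *P*-value among them was that of *Fgf12*, an intracellular FGF that binds the tail of sodium channels. It had 2492, 1828 and 2141 normalized counts in wild-type and 1450.2, 1616 and 1386 in dKO libraries, with each dKO library below each wild-type library. Its log2 fold change was -0.53 (adjusted P = 0.200 from limma, 0.00768 from DESeq2, 0.0775 to 0.682 from limma when single libraries were left out). *Dpp10*, an accessory subunit of the Kv4 channels that *Kcnd2* and *Kcnd3* encode, had 2052, 1518 and 1689 in wild-type and 1213, 1346 and 1129.7 in dKO libraries. The genotypes do not overlap for *Dpp10* either (log2 fold change -0.50, standard error 0.12, adjusted P = 0.238 from limma; 0.0180 from DESeq2).

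*Kcnip4*, another Kv4 accessory subunit and one of 3 genes outside the list of 38 that the study lists as differently spliced, had 121, 74.1 and 75.4 in wild-type and 49.9, 45.0 and 37.1 in dKO libraries (log2 fold change -0.99, standard error 0.28, adjusted P = 0.309 from limma). *Kcnt2*, the relative of *Kcnt1*, had 163, 154 and 122 in wild-type and 74.4, 79.5 and 101 in dKO libraries (log2 fold change -0.78, standard error 0.21, adjusted P = 0.295 from limma). *Kcnk4*, the mechanosensitive TRAAK channel, had 54.2, 26.9 and 78.0 in wild-type and 11.8, 16.7 and 19.7 in dKO libraries (log2 fold change -1.56, standard error 0.44, adjusted P = 0.302 from limma). For these 3 genes each dKO library lies below each wild-type library. The same holds for *Scn9a*, the neighbour of *Scn1a* on chromosome 2, with 269, 301 and 274 in wild-type and 182, 219.6 and 190.2 in dKO libraries (log2 fold change -0.51, standard error 0.15, adjusted P = 0.318 from limma).

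The libraries also differed from each other within a genotype. Wild-type library 1 was the highest of the 6 for 21 of the 38 channel genes and lay above the mean of the libraries for 30, with a median deviation of 0.15 on the log2 scale. In dKO library 3, 14 genes had their lowest value and 11 lay above the mean, with a median deviation of -0.11. The medians of the other 4 libraries lay between -0.05 and 0.02, whereas over all features each library's median lay at 0.00. Long transcripts were relatively more abundant in wild-type library 1 and dKO library 1, where the deviation of a feature had a Spearman correlation of 0.278 and 0.332 with exon length across 14478 features, which are not independent replicates. In the other 4 libraries it ran from -0.235 to -0.129.

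**Figure D4:**
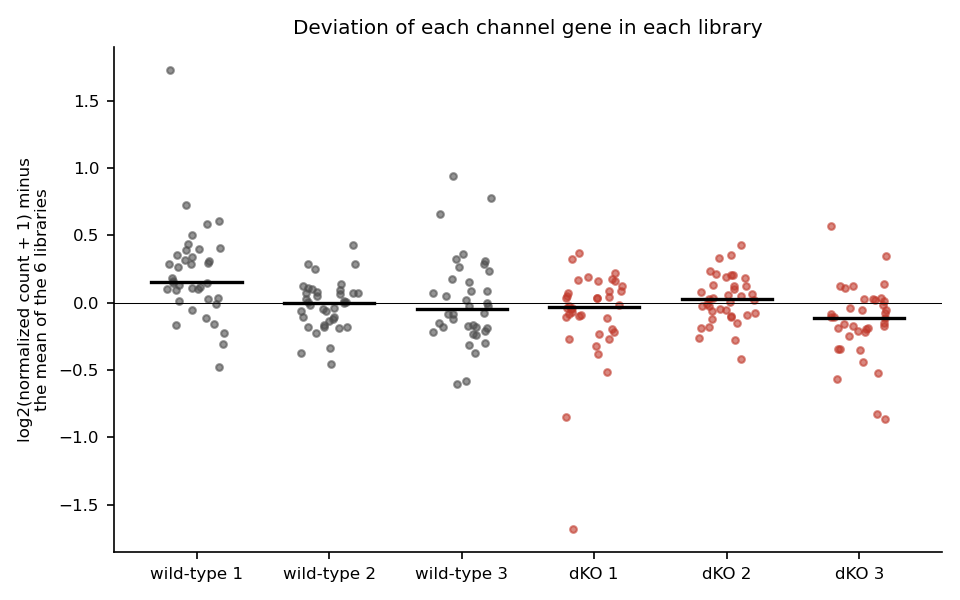
Deviation of each of the 38 channel genes in each library from its mean over the 6 libraries, on log2(normalized count + 1), with a line at the median. The median is highest in wild-type library 1 at 0.15 and lowest in dKO library 3 at -0.11, and the point of *Kcnh1* is the highest in wild-type library 1 and the lowest in dKO library 1.

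Some channel genes and marker lists shared an order of libraries, which was picked out after the values were seen. *Scn1a*, *Cacna1g*, *Cacna2d3*, *Kcnd2*, *Kcnh1*, *Kcnh3* and *Hcn2*, 7 of the 38, were higher in wild-type libraries 1 and 3 than in wild-type library 2, and higher in dKO library 2 than in dKO libraries 1 and 3. *Kcna1* and *Kcnq5* had the reverse order, and 29 of the 38 had neither. How often all features take these orders was not counted. Of 20 marker lists, 8 had the first order in their sums and 4 the reverse. The summed level of 6 astrocyte markers, of which *Aldoc* is the most abundant, was 9319, 6181 and 10062 in wild-type and 8136, 9417 and 6717 in dKO libraries, the first order. The same held for 8 radial glia markers, led by *Fabp7*, with 44307, 40861 and 51547 and 45753, 51366 and 42134, and 9 of interneurons and the ganglionic eminence, led by *Npy*, with 17005, 15809.8 and 21524 and 13563, 19112 and 15562. Other lists in this order are those of the oligodendrocyte lineage, endothelial and mural cells and meningeal fibroblasts, given below. The sum of 6 choroid plexus markers had this order too, with 667, 411 and 607 and 366, 449 and 257. That sum is mostly 1 gene, *Enpp2*, with a mean of 418 over the 6 libraries. Only 3 of these 6 markers were tested, with 1 positive and 2 negative log2 fold changes. The last list in this order is that of 5 immediate early genes, led by *Egr1*, with 856, 545 and 1327 and 598, 1004 and 712. The 8 markers of cortical excitatory neurons, led by *Neurod6*, summed to 104957, 128057 and 95878 in wild-type and 139053, 107186 and 140301 in dKO libraries, the reverse order. It was shared by 5 hippocampal markers, led by *Meis2*, with 9289, 10208 and 10164 and 11243, 9978 and 10228, and by the proliferation and intermediate progenitor markers below. No gene of these lists is at 0 in all libraries. The 5 oligodendrocyte lineage markers, led by *Olig1* and none of them at 0 in all libraries, had negative log2 fold changes in 5 of 5 and summed to 11942, 6865 and 8926 in wild-type and 6006, 6466 and 3804 in dKO libraries. Negative values were also found for 7 of 7 endothelial and mural markers, led by *Rgs5*, with sums of 12067, 11275 and 13287 in wild-type and 10386, 11385 and 9127 in dKO libraries. For 5 of 5 meningeal fibroblast markers, led by *Col1a2*, they were negative too, with 777, 361 and 1255 and 381, 434 and 375. The 6 proliferation markers, led by *Pcna*, had positive values in 6 of 6 and sums of 8382, 9415 and 8987 and 11086, 10509 and 10888, and the 5 intermediate progenitor markers, led by *Insm1*, in 5 of 5 with 7435, 9846 and 8145 and 13863, 10511 and 11684. None of these markers is at 0 in all libraries or passed the adjusted test from limma. The 8 pan-neuronal markers, led by *Tubb3* and none of them at 0 in all libraries, gave 3 positive and 5 negative log2 fold changes and summed to 267011, 245019 and 250653 in wild-type and 274453, 272189.7 and 280772 in dKO libraries. Positive and negative values numbered 7 and 1 for cortical excitatory neurons, 6 and 1 for deep-layer neurons and 4 and 2 for upper-layer neurons. They numbered 5 and 0 for erythroid cells, 1 and 5 for astrocytes and 2 and 4 for microglia. For interneurons and the ganglionic eminence they were 3 and 6, and for radial glia 4 and 4. No marker of these 8 lists passed the adjusted test from limma. The part of these cell types in the values of the channel genes was not tested.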

How the data were processed

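PolyA+ RNA of E18.5 cortex was sequenced by the authors in a 150 bp paired-end format from libraries of a stranded kit, 3 per genotype. The submitters' processing notes name STAR 2.7.5a, Picard, SAMtools, FastQC, DESeq2 and the mm10 build; the counting program and its strand setting are not given in the sources used here, so reads of a gene and of an overlapping gene on the other strand cannot be told apart. The authors deposited a signal per feature of the FAST database, and these values are not integers. Dividing a library's values by its smallest one above 0 (0.877 to 1.16, taken as 1 read) leaves 100% of them within 0.01 of an integer, and reads were recovered this way. Even numbers prevail among low read counts; whether both mates of a pair were counted is not given, and if they were, the recovered reads and the edgeR and DESeq2 calls on them would rest on fewer fragments than reads. Libraries hold 31837922 to 40896541 reads.

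Genotypes were compared with limma 3.58.1 (lmFit, eBayes with trend and robust; R 4.3.3) on log2(normalized count + 1). The 18970 features whose mean reaches 10 were fitted, and the Benjamini-Hochberg adjustment ran over all of them, with a threshold of 0.05. The added 1 shrinks fold changes of weakly expressed genes. Exon lengths are unions of the exons in GENCODE M21 basic. Python 3.11.15, numpy 2.4.6, pandas 2.3.3 and matplotlib 3.10.9 were used for the rest. The fits were tested on simulated data, but the outcome is not reported here and no result rests on it.

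Genes given with the value of each library are those with an unadjusted *P*-value under 0.05 or no overlap between the genotypes, those on the study's list of differently spliced genes, and the 6 other channel genes with the smallest *P*-values. *Cacna1g* and *Kcnj6* were added after their values were seen, and levels per kb are given for chosen genes of each role. The members and lists were chosen with earlier results of these data known. The alternatives were pseudocounts of 0.1 and 10, minimum means of 1 and 50, features with a symbol only, TMM rescaling, quantile normalization, limma without trend and robust, recovered reads in edgeR 4.0.16 and DESeq2 1.42.0, a block for the replicate number, a loess correction for exon length with and without that block, each library left out, and both libraries numbered 1 left out. Splicing was not analysed here.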

Additional observations from a re-analysis of the deposited data

How the results depend on the processing

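For 23 genes, without *Cacna1g* and *Kcnj6*, which were singled out later, 443 of the 459 comparisons with an alternative kept their direction and their side of the threshold. In 11 a gene moved past the threshold, *Khdrbs3* missed it once (adjusted P = 0.0891 from limma without trend and robust), and 4 changed sign: *Kcnn2* with -0.0592 without wild-type replicate 1, -0.0245 without wild-type replicate 3 and -0.13 without both libraries numbered 1, and *Cacna1e* with -0.12 without wild-type replicate 3. Omitting one library at a time, *Kcnn2* ranged from -0.0592 to 0.31 and *Cacna1e* from -0.12 to 0.35.

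The 19 features called by limma became 202 with DESeq2, 44 with the length correction, 7 without trend and robust, 6 over features with a symbol only, 5 without both libraries numbered 1, and 7 to 46 when single libraries were left out. Of the 38 channel genes, DESeq2 and the length correction each called 1, *Kcnh7*. Without both libraries numbered 1, 5 of the 38 (13.2%, against 9.36% of all features) had an unadjusted *P*-value under 0.05 and 14 (36.8%, against 41.1%) did not overlap. When single libraries were left out these counts ranged from 4 to 12 (10.5% to 31.6%, against 6.47% to 14.3% of all features) and 8 to 17 (21.1% to 44.7%, against 22.3% to 33.0%). Of the other channel genes, DESeq2 called 2 (*Fgf12*, *Dpp10*) and the length correction 1 (*Dpp10*), and the count at an unadjusted *P*-value under 0.05 ranged from 9 to 25 when single libraries were left out. The cause of these shifts was not tested.

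Correlations did not show that the replicate numbers pair the libraries. Both libraries numbered 1 shared a positive Spearman correlation of deviation with exon length (0.278 and 0.332), and whether they were handled together was not tested. The deviations from the group means correlated at 0.098, -0.228 and -0.079 for libraries of the same number, and not each library correlated best with its own number. With the replicate block, limma called 9 features and none of the channel genes. With the replicate block and the length correction it called 378 of 14478 features (2.61%), among them 4 of the 38 channel genes (*Kcnh7*, *Kcna1*, *Cacna1i* and *Kcnh1*) and 3 of the others (*Fgf12*, *Dpp10* and *Kcnf1*).

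With 3 libraries a genotype the standard error of a log2 fold change had a median of 0.14 over the 38, and differences of several standard errors did not pass the adjusted test.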

Other observations

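The spans of 30 of the 38 channel genes overlap other features of the table, inside them, across an end or around them, 496 in all. Of these, 16 passed the filter. Those with a symbol on the other strand are *Tmem259* at *Hcn2* (mean of 2949 normalized counts over the 6 libraries), *Dcp1b* at *Cacna1c* (695), *Dcp1a* (553) and *Chdh* (78.8) at *Cacna1d*, and *Hhat* at *Kcnh1* (91.4). On the same strand, *Il6ra* (64.9) overlaps *Hcn3*. Of these 16, none passed the adjusted test from limma (0.1% of all features did) and 1 lay under 0.05 unadjusted (11.5% of all features). This one, singled out after its values were seen, is an unnamed feature inside *Scn2a* (chromosome 2 from 65674548 to 65678149, mm10) with 11.4, 8.59 and 9.64 normalized counts in wild-type and 18.2, 29.3 and 33.6 in dKO libraries. Each dKO library lies above each wild-type library there, at few counts (log2 fold change 1.33, adjusted P = 0.353 from limma), while *Scn2a* itself had a log2 fold change of -0.13.

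In each library more features hold 2 recovered reads than 1, with 2166 against 957 in wild-type library 1 and 2074 against 821 in dKO library 3. Among features with 2 to 21 reads, between 74.9% and 78.1% of the values are even.

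The 8 striatal markers, led by *Ppp1r1b*, summed to 3469.6, 3603 and 3697 normalized counts in wild-type and 3307, 3879 and 4278 in dKO libraries, highest in dKO library 3. Of these 8, low ones picked out after their values were seen varied more: *Isl1* had 17.1, 1.07 and 95.6 normalized counts in wild-type and 3.63, 115 and 25.5 in dKO libraries, and *Six3* had 24.7, 5.37 and 148 and 7.26, 107 and 74.2. None of these marker genes passed the adjusted test from limma.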
